A study of Rattus norvegicus with 6 samples.

Results

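The cytosolic ribosomal protein genes were measured in cultured rat spinal cord astrocytes with and without a mutant human SOD1 transgene. They were taken by symbol: every probe set whose platform annotation gave exactly 1 gene symbol of the Rpl, Rplp or Rps series, or Rpsa, was a member, and each gene was read from its probe set with the highest mean log2 signal. This gave 54 probe sets for 47 genes, 33 of the large and 14 of the small subunit, among 31042 probe sets and 14217 genes with a symbol of their own. The 6 Affymetrix Rat Genome 230 2.0 arrays fell into 2 groups of 3: NonTG, cultures from nontransgenic rats, and hSOD1G93A, cultures from rats with a transgene for a mutant human SOD1, the copper and zinc superoxide dismutase, of a kind that causes familial amyotrophic lateral sclerosis. In both groups confluent astrocyte monolayers spent 24 hours in supplemented L15 medium, and 5 ug of total RNA went into each labelling. The replicates are lettered A, B and C in each group. The promoter that drives the transgene, the number of transgenic lines, the ages of the animals, any pooling and the meaning of the letters are not given in the sources used here. Nor do the labels tie the arrays of a group to different animals or cultures, so a p-value here reflects the scatter among 3 samples per group that may be technical repeats. All signals are linear intensities from the authors' MAS5 processing, and every difference is the log2 signal in hSOD1G93A minus that in NonTG.

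A ribosome is built from a small subunit, which binds the mRNA and decodes it, and a large subunit, which joins the amino acids and lets the new chain out through a tunnel. Each subunit consists of ribosomal RNA and a set of ribosomal proteins, most of them made from a single gene and needed in equal numbers. The mRNAs of these proteins are among the most abundant in dividing cells, and nearly all begin with a C followed by a run of pyrimidines, the terminal oligopyrimidine (TOP) motif, through which mTORC1 signalling sets how actively they are translated. In astrocytes ribosomes are also found in the fine processes, where some proteins are made locally.

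Most ribosomal protein genes had slightly lower signals in hSOD1G93A, by about the same small amount, and no single gene passed the test. Of the 47 genes, 43 were above the filter on dim probe sets (a signal of 66.7, the 40th percentile of mean log2 signal), 30 of the large and 13 of the small subunit, and 38 of these 43 were lower in hSOD1G93A, against 48.0% of all 18625 probe sets tested. The median difference of the 43 was -0.10, or 0.932-fold, with the middle part of the genes, between the quartiles, from -0.13 to -0.060, while the median over all probe sets was 0.007. In limma's test across all probe sets with Benjamini-Hochberg adjustment, 0 of the 43 genes passed an adjusted p of 0.05 and the smallest adjusted p among them was 0.9997. No probe set on the array passed either (0.00%, smallest adjusted p 0.4004), while 474 had an unadjusted p below 0.05. Among the genes 2 had an unadjusted limma p below 0.05 in the lower direction, Rps3 and Rps6, against 1.20% of all probe sets. With the letter as a replicate block the median was the same, and 0 genes passed after adjustment (smallest adjusted p 0.8344). In this fit 17 genes had an unadjusted limma p below 0.05, all in the lower direction. Of all probe sets, 3.00% had such a p in the lower direction. After quantile normalization, described below, the fit with the block gave 1 such gene and the fit without it 0.

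Signal strength separates the genes into 2 kinds. The 38 bright genes, with a mean log2 signal above 12, lay between 12.81 and 14.44, and 36 of them were lower in hSOD1G93A, with differences from -0.19 to 0.090 and standard errors of 0.061 to 0.11. Their level followed the array as well as the group. The median over these genes of the log2 signal minus the gene's own mean was -0.021 on NonTG A, 0.12 on NonTG B and 0.048 on NonTG C, and -0.11 on hSOD1G93A A, 0.003 on hSOD1G93A B and -0.056 on hSOD1G93A C. The lowest NonTG array, A, thus lay below the highest hSOD1G93A array, B, and the groups overlapped. On NonTG B 36 of the 38 genes were above their own mean, and on hSOD1G93A A 4 were. Without NonTG replicate B the median difference of the 43 genes was -0.062, and over the other arrays left out in turn it ranged from -0.13 to -0.070.

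**Figure D1:**
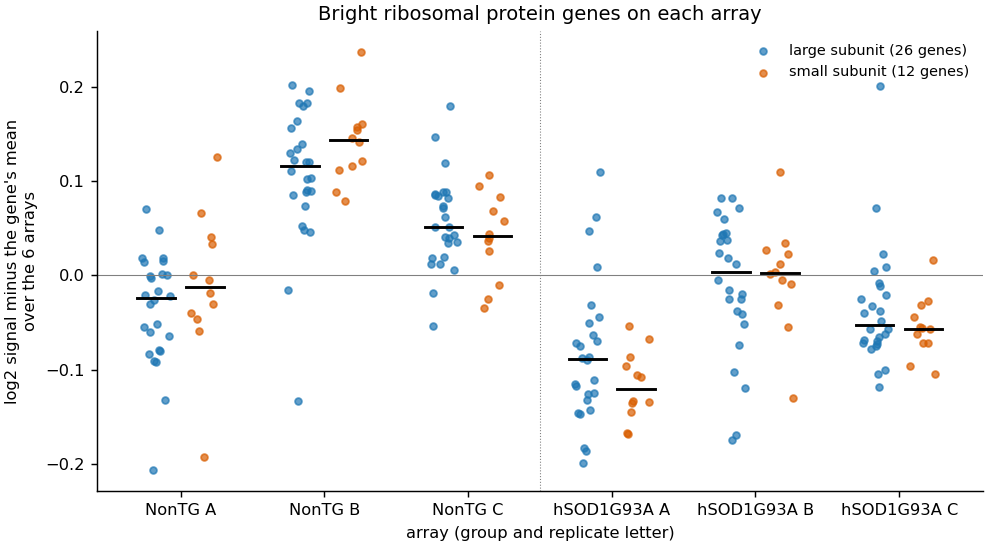
Log2 signal of each of the 38 bright ribosomal protein genes minus the gene's mean over the 6 arrays, by array, with large subunit genes in blue, small subunit genes in orange and black bars at the medians. The genes move as a block from array to array: NonTG B has the highest medians and hSOD1G93A A the lowest, and hSOD1G93A B lies between NonTG A and NonTG C.

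Among the bright small subunit genes the largest difference was that of Rps3 (1371299_at), a protein at the entry of the mRNA channel that also takes part in DNA repair. Its signals were 16163, 16110 and 15227 on NonTG A, B and C and 13947, 13542 and 14100 on hSOD1G93A A, B and C. All 3 hSOD1G93A arrays were below all 3 NonTG arrays, and the difference was -0.19 (SE 0.061, 95% interval -0.33 to -0.054), with an unadjusted limma p of 0.0117 and an adjusted p of 0.9997. Rps6 (1367573_at), the ribosomal protein that S6 kinase phosphorylates downstream of mTORC1, read 17739, 19853 and 19166 in NonTG and 15850, 17845 and 16662 in hSOD1G93A. Here the NonTG A and hSOD1G93A B arrays crossed, yet within each letter hSOD1G93A was the lower one, by 0.16 in A, 0.15 in B and 0.20 in C. The difference was -0.17 (SE 0.072), with an unadjusted limma p of 0.0397 and an adjusted p of 0.9997.

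Rps23 (1370242_at) sits at the decoding centre, where codon and anticodon meet. Its signals were 20220, 21247 and 20614 in NonTG and 17511, 19691 and 18929 in hSOD1G93A, without overlap, a difference of -0.15 (SE 0.066). Rps15a (1398775_at), a protein of the small subunit's body, was also without overlap, but by a narrow margin: its lowest NonTG signal was 15674 and its highest hSOD1G93A signal 15660. Rps16, whose tail reaches the tRNA in the peptidyl site, differed by -0.13 (SE 0.073), Rps24, a protein mutated in Diamond-Blackfan anaemia, by -0.13 (SE 0.071), Rps29, a zinc-binding protein of the small subunit's head, by -0.11 (SE 0.066) and Rps3a, near the exit of the mRNA, by -0.11 (SE 0.075). In these 4 genes the groups overlapped. Rpsa, a protein of the small subunit also known as the laminin receptor precursor, differed by -0.059 (SE 0.064). Its other probe sets gave -0.046 and -0.090. Every one of the 13 small subunit genes tested had a difference below 0.

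In the large subunit Rpl41 (1370866_at), the shortest ribosomal protein, which lies where the subunits touch, read 16764, 18748 and 17020 in NonTG and 14552, 16763 and 15745 in hSOD1G93A. The groups were apart by 1 unit of signal, and the difference was -0.16 (SE 0.076), with an unadjusted limma p of 0.0654 and an adjusted p of 0.9997. Rpl35 (1388372_at), at the rim of the exit tunnel where the signal recognition particle docks, read 13944, 14846 and 14831 in NonTG and 13133, 13716 and 13330 in hSOD1G93A, without overlap, a difference of -0.12 (SE 0.062). Rpl22 (1370253_at), an RNA-binding protein with a role in T cell development, had NonTG signals of 11813 to 12532 and hSOD1G93A signals of 11215 to 11439. Rpl23 (1398885_at), a protein that can bind the p53 regulator Mdm2, had 17248 to 18320 and 15799 to 17008. In these 7 genes (Rps3, Rps23, Rps15a, Rpl41, Rpl35, Rpl22 and Rpl23) every hSOD1G93A array was below every NonTG array, against 3.51% of all probe sets, and in 0 of the 43 genes was it the other way round.

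Other large subunit genes had the same size of difference with overlapping groups. Rpl27, a protein mutated in some Diamond-Blackfan families, differed by -0.14 (SE 0.073), Rpl12, at the base of the stalk, by -0.14 (SE 0.082), Rpl3, next to the peptidyl transferase centre, by -0.12 (SE 0.073) and Rpl7a, whose introns hold small nucleolar RNAs, by -0.12 (SE 0.068). Rplp0 (1367560_at), the protein that anchors the acidic stalk, differed by -0.062 (SE 0.078), with 16417, 17974 and 18828 in NonTG and 15893, 18216 and 16868 in hSOD1G93A. The exceptions among the bright genes were Rpl21, with 6738, 6549 and 7637 in NonTG and 7748, 6364 and 8249 in hSOD1G93A, a difference of 0.090 (SE 0.11), and Rpl24, a protein that reaches across to the small subunit, at 0.050 (SE 0.085). Rpl24 rested on 1 low array: NonTG A read 8051 and the other 5 arrays 9340 to 9848, and without NonTG replicate A its difference was -0.041.

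Grouped by role, the genes had medians close to that of the whole set. The 4 measured proteins of the mRNA channel and decoding centre (Rps3, Rps15, Rps23 and Rps28) were all lower, with a median of -0.12. All 6 measured proteins of the exit tunnel were lower, with a median of -0.099. One of these, Rpl39, was dim and ranged from 111.7 to 277.7 in NonTG alone. Rpl5 and Rpl11, which carry the 5S RNA into the large subunit and bind Mdm2 when assembly fails, differed by -0.12 (SE 0.081) and -0.081 (SE 0.064). Of the 19 listed genes mutated in Diamond-Blackfan anaemia, an inherited failure of red cell formation caused by too little of 1 ribosomal protein, 11 were measured, and their median was -0.11. Of these, Rpl18 was picked out after its values were seen: its signals were 13104, 14317 and 13438 in NonTG and 14061, 12534 and 14302 in hSOD1G93A, and both group means were 13.73 on the log2 scale.

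**Figure D2:**
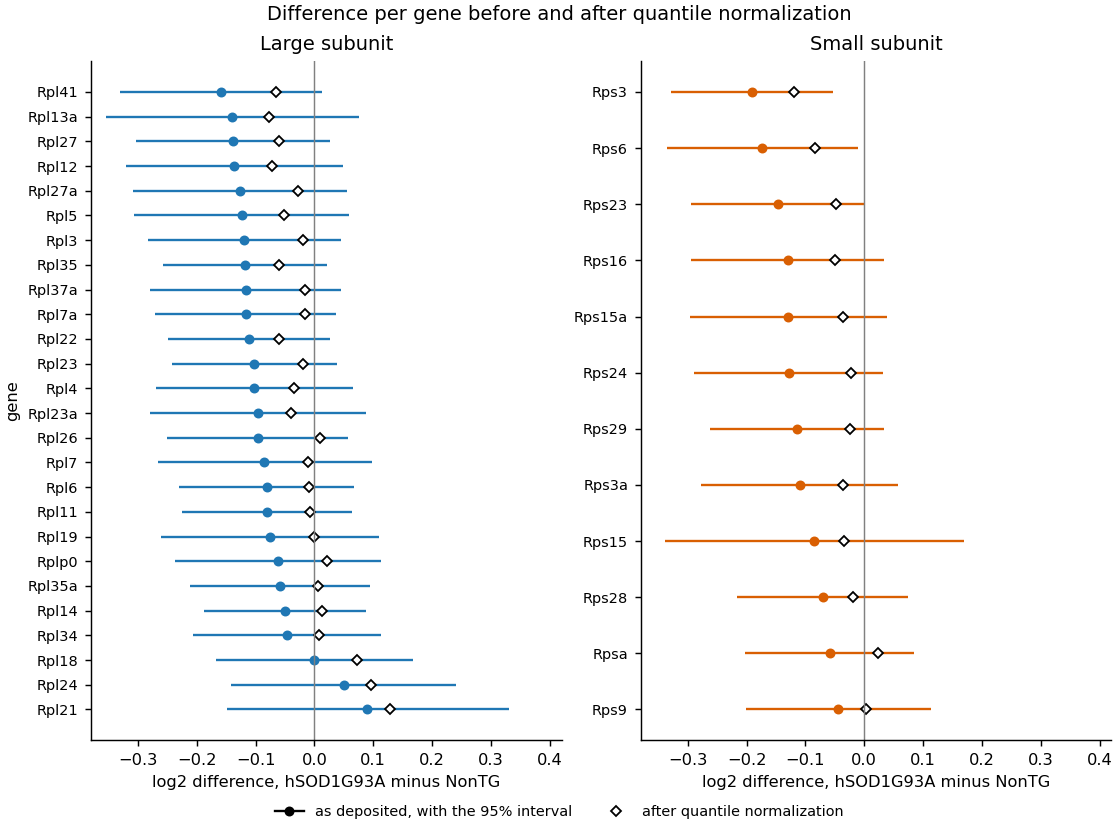
Log2 difference of hSOD1G93A minus NonTG for the 38 bright genes, with the 95% interval of limma's fit (filled circles and lines, 3 arrays per group) and the same difference after quantile normalization (open diamonds). Only the intervals of Rps3 and Rps6 leave out 0, and after quantile normalization most points lie nearer to 0.

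The shared TOP motif can be seen in the promoters of some of these genes. These 9 windows, from RefSeq's rat build GRCr8, hold 15 bases before and 15 from each annotated start. They are shown for genes described above, with Rpl19 as a further example of the motif. Capitals mark the unbroken run of C and T from the annotated start, the first base after the middle of the window.
Rps3, chr1:163195762-163195791, minus strand: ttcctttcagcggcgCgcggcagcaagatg
Rps6, chr5:106420526-106420555, minus strand: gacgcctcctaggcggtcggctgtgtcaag
Rps23, chr2:23814502-23814531, plus strand: tgggtccttcctgccTCTCTTCTCTCTTTC
Rps24, chr16:96502-96531, plus strand: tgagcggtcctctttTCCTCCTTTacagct
Rps3a, chr2:173827028-173827057, minus strand: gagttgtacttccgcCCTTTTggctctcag
Rpl35, chr3:43165907-43165936, minus strand: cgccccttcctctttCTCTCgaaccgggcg
Rpl22, chr5:168117946-168117975, plus strand: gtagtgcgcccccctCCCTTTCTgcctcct
Rpl19, chr10:83519049-83519078, plus strand: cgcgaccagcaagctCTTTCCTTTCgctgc
Rplp0, chr12:46718376-46718405, minus strand: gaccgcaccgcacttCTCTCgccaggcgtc
In Rps3a, Rpl35, Rpl22, Rpl19 and Rplp0 the annotated start is a C followed by at least 4 pyrimidines. In Rps23 and Rps24 the run begins with a T, and a C followed by pyrimidines lies within 5 bases of the start. In Rps3 and Rps6 no such run stands at the annotated start.

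Promoter entries were found for 42 of the 47 genes and for 34 of the 38 bright ones. Rpl7, Rpl23a, Rpl27 and Rps29 are the bright genes without one. A C followed by 4 letters that are each C or T, read on the gene's strand, stood at the annotated start of 10 of the 34 genes (29.4%), against 2.63% of 33469 promoters, and within 5 bases of it in 18 (52.9%), against 17%. The letters TTCCGG, the core of sites bound by Ets factors, were found on either strand of the 300 bases around the start (250 before and 50 after) in 12 of the 34 (35.3%), against 15% of all promoters. The letters AAGATGGC, part of the YY1 site, were found in 4 (11.8%), against 3.17%, and TATAAA in 3 (8.82%), against 14.2%. None of these motifs contains another. The table gives 1 start for each gene used here, so a missing match says only that the letters are not in this window. The 10 genes with the motif at the start had differences of -0.12 to -0.047 with a median of -0.080, and the 24 without it -0.19 to 0.090 with a median of -0.12. The ranges overlapped, and the start that these cells use was not measured.

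Within the letters the direction was the same in all 3. The value of the list (the median over genes of the log2 signal minus the gene's mean) differed by -0.086 between the A arrays, where 33 genes were lower in hSOD1G93A, by -0.12 between the B arrays, where 38 were, and by -0.099 between the C arrays, where 38 were. In 28 of the 43 genes hSOD1G93A was lower in all 3 letters, against 12.2% of all probe sets, and in 0 genes was it higher in all 3. These 28 were all bright genes, 18 of the large and 10 of the small subunit. The letters share their arrays with the comparison of the groups, so these counts restate that comparison in pairs and do not add to it. The 12.2% is over probe sets of every signal above the filter. Leaving out ribosomal protein probe sets, 66.2% of the 996 with a mean log2 signal above 12 had a group difference below 0. Their share lower in all 3 letters was not computed.

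**Figure D3:**
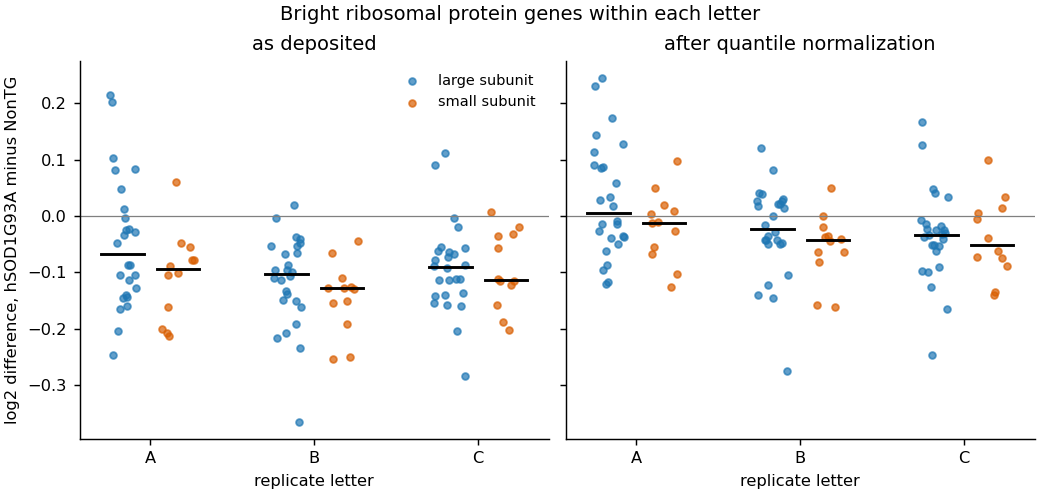
Log2 difference of hSOD1G93A minus NonTG between the arrays of 1 letter, for the 38 bright genes, as deposited (left) and after quantile normalization (right), with large subunit genes in blue, small subunit genes in orange and black bars at the medians. As deposited, all 6 medians lie below 0; after quantile normalization they lie close to 0, and that of the large subunit in letter A is above it.

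Quantile normalization, which gives all arrays the same distribution of signals, left a smaller difference. After it 30 of the 43 genes were lower, against 49.1% of all probe sets, with a median of -0.020, and 12 were lower in all 3 letters, against 12.2% of all probe sets, while 3 were higher in all 3. The differences of the list value within the letters were -0.007 in A, -0.015 in B and -0.041 in C. Rps3 then differed by -0.12 (SE 0.067) and had overlapping groups. Rps6 at -0.084 (SE 0.051), Rps23 at -0.048 (SE 0.048) and Rpl35 at -0.061 (SE 0.053) had every hSOD1G93A array below every NonTG array. These were the only 3 of the 43 genes without overlap. The share of all probe sets lower without overlap was 3.51% as deposited and was not computed after quantile normalization. Rplp0 and Rpsa had the opposite sign, at 0.021 and 0.024. With cyclic loess, another normalization between arrays, the median was -0.056 and 15 genes were lower in all 3 letters. Centring each array on its median, which moves all probe sets alike, gave -0.12.

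The other bright probe sets on the arrays differed in the same direction. Leaving out ribosomal protein probe sets, the median difference was 0.014 to 0.019 for probe sets with a mean log2 signal between 6 and 10. It was -0.024 for 689 probe sets between 12 and 13, -0.048 for 266 between 13 and 14 (78.2% lower), and -0.10 for 41 between 14 and 15 (90.2% lower). The ribosomal protein genes were at -0.085 (21 of 22 lower) between 13 and 14 and at -0.12 (15 of 15 lower) between 14 and 15. Both sets lay further below 0 in the brighter of these 2 ranges, and by these medians the ribosomal protein genes were the lower set in each. That gap was not tested. Between 13 and 14 it was absent in letter A, with the ribosomal protein genes at -0.050 and the others at -0.058. In B and C the ribosomal protein genes were there at -0.12 and -0.072 and the others at -0.059 and -0.040. Between 14 and 15 the ribosomal protein genes were at -0.144, -0.127 and -0.115 in A, B and C. The others were at -0.117, -0.092 and -0.065. Rpl21, the exception described above, was the only bright ribosomal protein gene below 13. After quantile normalization the others were at 0.009 and -0.008 in the ranges from 13 to 14 and from 14 to 15, and the ribosomal protein genes at -0.026 and -0.022. In letter A between 13 and 14 the ribosomal protein genes were then the higher set, at 0.013 against -0.006. Between 14 and 15 they were at -0.037, -0.035 and -0.041 in A, B and C, against -0.014, -0.01 and 0.005.

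**Figure D4:**
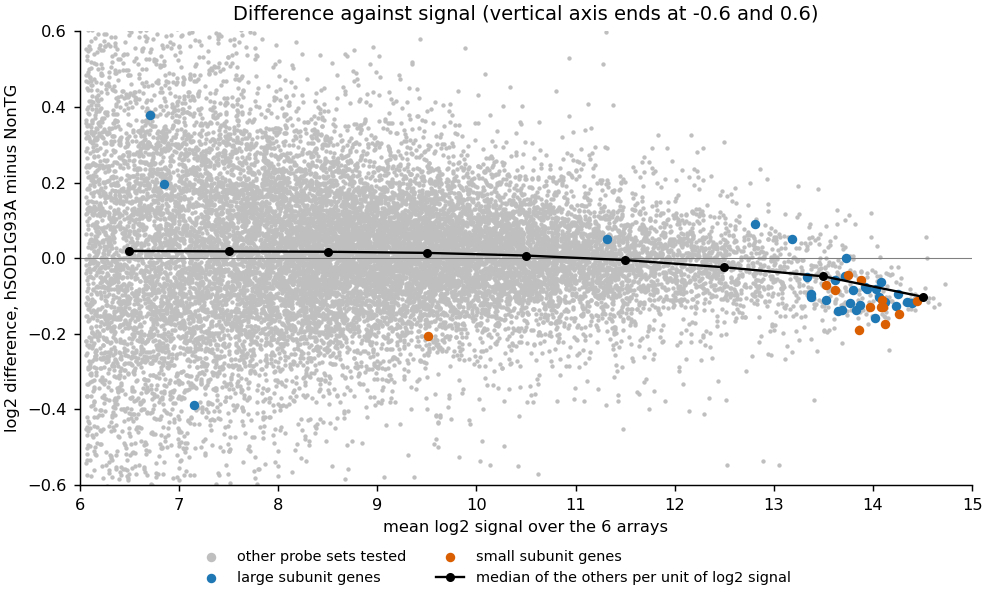
Log2 difference of hSOD1G93A minus NonTG against mean log2 signal over the 6 arrays, for the 43 ribosomal protein genes (blue, large subunit; orange, small subunit) and the other probe sets tested (grey), with the black line joining the medians of the non-ribosomal probe sets per unit of log2 signal. The line bends from 0.019 at the dim end to -0.10 at the bright end, where most ribosomal protein genes lie; 370 grey points fall outside the vertical range of -0.6 to 0.6.

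The beta-actin, Gapdh and cre control probe sets also had lower mean log2 signals in hSOD1G93A. The beta-actin controls differed by -0.14, -0.11 and -0.090 (3′, middle and 5′ part of the mRNA) and the Gapdh controls by -0.068 to -0.088. The cre control, a bacteriophage transcript added to every sample before hybridization, differed by -0.048 and -0.066 at its 3′ and 5′ probe sets. Its 3′ probe set differed by -0.002, -0.078 and -0.063 in A, B and C, and its 5′ probe set by -0.088, -0.091 and -0.017. The dimmer bioC spike differed by -0.11 and 0.15 and bioD by -0.028 and 0.019. The ribosomal protein genes and the probe sets with several ribosomal protein symbols made up 27 of the 68 probe sets (39.7%) with a mean log2 signal of at least 14. They were 69 of 376 (18.4%) from 13 upward and 72 of 1068 (6.74%) from 12 upward. The distribution to which quantile normalization sets the arrays is thus partly their own, mainly at its top. How far the lower control signals bear on the ribosomal protein genes was not tested. In bulk RNA, less ribosomal protein mRNA per cell and fewer cells of a type rich in it cannot be told apart.

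Large and small subunit genes differed by similar amounts. The median was -0.096 over the 30 large subunit genes, 25 of them lower, and -0.13 over the 13 small subunit genes, all lower, so that the large subunit lay 0.032 above the small one. On single arrays the median of the large subunit minus that of the small one was 0.001, -0.043 and -0.003 in NonTG A, B and C and 0.016, 0.013 and 0.003 in hSOD1G93A A, B and C. Every hSOD1G93A array was thus above every NonTG array, the nearest being 0.003 against 0.001, and NonTG B lay furthest from 0. The contrast between the groups was 0.015 in A, 0.056 in B and 0.006 in C, and without NonTG replicate B the gap of 0.032 was 0.014. With the bright genes alone it was 0.022, the groups overlapped and the contrast in letter C was -0.006. After quantile normalization it was 0.022, with overlapping groups and 19 of 30 large and 11 of 13 small subunit genes lower. With the bright genes alone after quantile normalization the arrays read -0.009, -0.023 and -0.002 in NonTG and 0.016, 0.008 and 0.004 in hSOD1G93A, without overlap, and the contrast was 0.025 in A, 0.031 in B and 0.007 in C. Whether the groups overlapped thus differed between these 4 ways of reading the same arrays.

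The 5 tested genes that were not bright were Rpl7l1, Rps27l, Rpl39, Rpl28 and Rpl26l1. Rpl7l1 (1389013_at), a paralog of Rpl7 that takes part in large subunit assembly, was measured as precisely as the bright genes. It read 2549, 2562 and 2412 in NonTG and 2740, 2656 and 2400 in hSOD1G93A, with overlapping groups and a difference of 0.050 (SE 0.083), opposite in sign to most members, and its second probe set gave -0.031. The other 4 had wider errors. Rpl26l1 (1393073_at), a close paralog of Rpl26, read 127.9, 69.7 and 86.4 in NonTG and 97.9, 122.3 and 141.4 in hSOD1G93A, a difference of 0.38 (SE 0.29) with overlapping groups. Rpl28 differed by 0.20 (SE 0.23), Rps27l, a paralog of Rps27 and a target of p53, by -0.21 (SE 0.14) and Rpl39 by -0.39 (SE 0.33). The 4 genes that did not pass the filter were Rpl30, Rps13, Rpl39l1 and Rpl3l, the last a form of Rpl3 made in muscle. Rpl30 and Rps13 encode proteins that every ribosome holds, and their only probe sets with a single symbol read at most 129.4 and 93.1 on any array, so a dim probe set here does not mean a silent gene. Second probe sets of Rpl3, Rpl7, Rpl14 and Rps24 were also dim, at most 495.2 on any array, and their differences were imprecise: that of Rpl7 was 0.062 (SE 0.14), that of Rps24 -0.14 (SE 0.28) and that of Rpl3 -0.46 (SE 0.54), while that of Rpl14 did not pass the filter.

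Further ribosomal protein probe sets were outside the rule because their annotation joins a ribosomal protein symbol with others, mostly of copies and pseudogenes. Of these 36 probe sets 35 were tested, and 34 were lower in hSOD1G93A, with a median of -0.099, and 18 were lower in all 3 letters. After quantile normalization 25 were lower, with a median of -0.031, and 8 in all 3 letters. No gene is named from them, and the stalk proteins Rplp1 and Rplp2 and the ubiquitin fusion Rps27a were not analysed by name. Ribosomal protein genes have many processed pseudogenes, and whether a member probe set also binds their transcripts or those of paralogs was not tested. Among ribosomal proteins with other names, Rack1, a signalling scaffold on the small subunit's head, differed by -0.11 (SE 0.069) and Rps4y2 by 0.32 (SE 0.22).

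The other genes of translation fell into lists near -0.1 and lists near 0, and no gene of any of them passed limma's adjusted threshold. Of the 8 elongation factors 7 were lower, with a median of -0.084 (-0.013 after quantile normalization). Eef2 (1370003_at), which moves the ribosome along the mRNA, read 9756, 10286 and 10167 in NonTG and 8968, 8852 and 9469 in hSOD1G93A, without overlap. Its difference was -0.15 (SE 0.065), with an unadjusted limma p of 0.0484 and an adjusted p of 0.9997. The mean of all its probe sets gave 0.048. Eef1a1, which brings the aminoacyl-tRNA, differed by -0.10 (SE 0.080) and Eef1b2, its exchange factor, by -0.080 (SE 0.060). Of 10 measured genes with other TOP mRNAs, some of them elongation or initiation factors counted in those lists too, 8 were lower with a median of -0.091 (-0.017 after quantile normalization), among them Naca, a chaperone of nascent chains, at -0.12 (SE 0.065).

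Initiation factors, assembly factors and regulators had medians near 0. Of 30 initiation factors 18 were lower, with a median of -0.010. Eif3f, a subunit of the scaffold on the small subunit, differed by -0.14 (SE 0.075). Eif4e, the cap-binding protein, differed by -0.12 (SE 0.071), with its 3 hSOD1G93A arrays below its 3 NonTG arrays. Eif2b3, a subunit of the exchange factor of Eif2, differed by 0.24 (SE 0.12), with its 3 hSOD1G93A arrays above its 3 NonTG arrays. Of 70 ribosome assembly genes 37 were lower, with a median of -0.005. The largest named differences among these belonged to the small subunit processome protein Nop14, at -0.55 (SE 0.22), and the helicase Ddx10, at -0.44 (SE 0.14). Rpf2, which helps to place the 5S particle, differed by -0.32 (SE 0.12). Ddx10 read 408.4, 408.5 and 470.5 in NonTG and 314.4, 355.9 and 283.4 in hSOD1G93A, without overlap.

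Of 17 genes of ribosomal RNA transcription 9 were lower, with a median of -0.005. Myc, an activator of ribosome synthesis, differed by -0.50 (SE 0.23) at signals of 115.0 to 235.0, and the RNA polymerase I factors Taf1b and Taf1d by 0.43 (SE 0.25) and 0.19 (SE 0.15). Of 25 genes of the mTORC1 and S6 kinase pathway 16 were lower, with a median of -0.026. Rps6ka3, a kinase that also phosphorylates Rps6, differed by -0.33 (SE 0.18), the mTORC1 inhibitor Tsc1 by -0.16 (SE 0.12; 0.071 as the mean of its probe sets) and Deptor, an mTOR-binding inhibitor, by 0.20 (SE 0.17). The lists differ in signal. A mean log2 signal above 12 was reached by 38 of the 43 ribosomal protein genes, 6 of the 8 elongation factors, 8 of the 10 other TOP genes and 11 of the 30 initiation factors, and by 2 of 70, 0 of 17 and 2 of 25 genes of the last 3 lists.

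**Figure D5:**
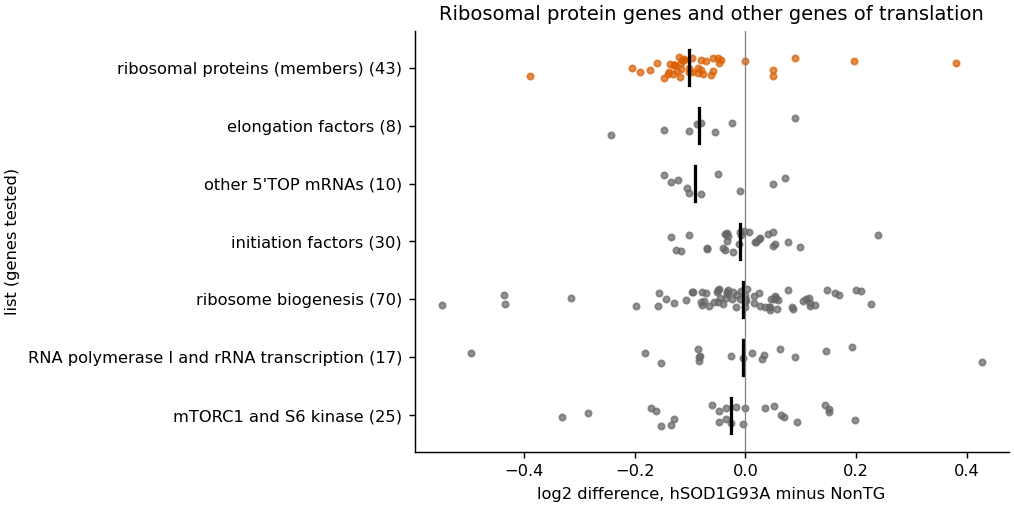
Log2 difference of hSOD1G93A minus NonTG for each gene tested in 7 lists, with black bars at the list medians and the number of genes in parentheses. The medians of the ribosomal proteins (-0.10), elongation factors (-0.084) and other TOP mRNAs (-0.091) lie to the left of those of the other 4 lists, which lie between -0.026 and -0.005.

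The cultures and arrays were checked with markers and controls. Of 10 astrocyte markers 9 had a probe set and all 9 were above the filter, among them Gfap, Gja1, Aqp4 and Fabp7, while 0 of 8 microglia markers were above it. The 9 astrocyte markers were divided, 5 higher and 4 lower (median 0.056; -0.046, -0.014 and 0.14 in A, B and C). All 10 markers of dividing cells had differences above 0 (median 0.18; -0.16, 0.39 and 0.25 in A, B and C), all 6 markers of pericytes and smooth muscle had differences below 0 (median -0.11; 0.27, -0.50 and -0.24), and 4 of 5 tested oligodendrocyte markers were higher (median 0.63; 0.21, 0.68 and 0.53). Of 5 neuron markers 3 were higher (median 0.19; 0.22, -0.085 and 0.12). The 6 markers of fibroblasts and meninges were divided, 3 higher and 3 lower (median 0.063; 0.45, -0.13 and 0.19). Of these the dim Dcn differed by 2.52 (limma adjusted p = 0.4004), and the bright collagen genes Col1a1, Col1a2 and Col3a1 by -0.18 (SE 0.14), -0.12 (SE 0.065) and -0.23 (SE 0.20). Col1a2 had every hSOD1G93A array below every NonTG array. The values by letter are differences of the list value between the arrays of a letter, and the part of these cells in the ribosomal protein result was not tested. Sod1 (1367641_at), the rat gene, read 8982, 8855 and 9430 in NonTG and 9781, 10860 and 10510 in hSOD1G93A, without overlap. Its difference was 0.19 (SE 0.069, limma adjusted p = 0.9997). Whether this probe set also binds the human transcript was not tested, so it does not check for the human transgene. The ratio of the 3′ to the 5′ control was 0.988 ± 0.030 (SD, n = 3) in NonTG and 1.00 ± 0.0062 (SD, n = 3) in hSOD1G93A for Gapdh (two-sided exact permutation p = 0.7). It was 1.16 ± 0.029 and 1.12 ± 0.021 for beta-actin (exact permutation p = 0.2). The hexokinase control had higher ratios with a wider spread, 1.3 ± 0.093 and 1.22 ± 0.071 (exact permutation p = 0.3). In these tests 3 arrays against 3 can give no p below 0.1.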

How the data were processed

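The deposited table gives each probe set a linear intensity on each array. The submitters' processing notes name MAS5 and GCOS 1.4 as the software, and image processing with GCOS is also in the design text. The design text speaks of GC-RMA instead, but the values are linear and their trimmed mean was 500.16 to 500.17 on every array, so they are taken as MAS5 signals scaled to a common target. The array medians ran from 128.85 to 136.28. The 57 control probe sets were left out of the 31099, and probe sets at or below the 40th percentile of mean log2 signal were removed, which left 18625.

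Intensities were put on the log2 scale without a pseudocount or another normalization. Limma 3.58.1 under R 4.3.3 (lmFit, then eBayes with trend) compared hSOD1G93A with NonTG over all 6 arrays, two-sided, and p-values were adjusted after Benjamini and Hochberg over the 18625 probe sets. The fit was tested on simulated data. The precision is limited by the number of arrays. A list's value on an array is the median over its genes of the log2 signal minus the gene's mean.

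Whether the letters mark a pairing of the arrays is not given. Deviations from the group means correlated at 0.30 (A), 0.25 (B) and 0.20 (C) between arrays of the same letter, and at -0.28 to 0.025 otherwise. The deviations of a group sum to 0, so these correlations depend on one another. The fit with the letter as a block was the alternative. Others were quantile, median and loess normalization, filters, a pseudocount of 16, the variance model, array weights, other probe sets of a gene, members without paralogs and each array left out in turn. Of the 54 member probe sets 52 were matched to the current gene table by Entrez identifier.

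The members, lists, roles and named genes (the 8 genes of smallest p in each subunit, the 4 highest, the stalk, 5S particle, Rpsa and paralogs, and the 3 of smallest p in each other list) were chosen with earlier results of these data known. The threshold for bright genes (mean log2 above 12) was chosen after seeing the data.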

Additional observations from a re-analysis of the deposited data

How the results depend on the processing

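The number of ribosomal protein genes past an adjusted p of 0.05, and that of all probe sets past it, was 0 under each alternative run. The number of genes lower in hSOD1G93A was 30 of 43 after quantile normalization with or without the replicate block, 28 of the 38 bright members after it, 40 of 47 without the filter, and 35 to 39 under the other alternatives. The median difference of -0.10 became -0.020 after quantile normalization, -0.020 with the replicate block and quantile normalization together and -0.021 for the bright members after quantile normalization, and was -0.056 after cyclic loess. The replicate block alone left it at -0.10 and changed no call after adjustment. The count of genes lower within all 3 letters, 28, became 12 with each of these 3 uses of quantile normalization and 15 with cyclic loess, and 24 to 30 with the others. It cannot be given with an array left out. The cause of these moves was not tested. With each array left out in turn the median ran from -0.13 (without NonTG replicate A) to -0.062 (without NonTG replicate B), the number lower from 35 to 39 and the gap between large and small subunit genes from 0.014 to 0.043. Of 45 named genes, 5 reversed under 1 or more alternatives: Rplp0 to 0.021 and Rpsa to 0.024 after quantile normalization, with the replicate block too, Eef2 to 0.048 and Tsc1 to 0.071 as the mean of their probe sets, and Rpl24, which ran from -0.041 to 0.10 with each array left out. The bright members were an alternative chosen after seeing the data. Signals near the filter, such as those of Rpl26l1 and Rpl39, limit what can be said of those genes.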
